A study of Oryza sativa Japonica Group with 12 samples.

Results

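The 50 genes described here encode expansins, a xyloglucan endotransglucosylase/hydrolase (XTH) and cellulose synthase-like (CSL) proteins of rice, and were followed in the base of young shoots of wild-type plants and of the gs1;2 mutant. They were chosen by name: a gene belonged if a symbol or synonym, without a leading Os, was EXPA, EXPB, EXLA, EXLB or XTH with a number, or CSLA, CSLC, CSLD, CSLE, CSLF or CSLH with a number. Of 76 genes with such a name, 50 had a probe set that lists only that gene, out of 17905 genes measured in this way, and each gene was read from its probe set with the highest mean over 12 arrays. They comprised 14 alpha-expansins (EXPA), 11 beta-expansins (EXPB), 4 expansin-like genes (all EXLA), 1 XTH, 9 genes of the CSLA and CSLC families, 4 CSLD genes, 2 CSLE genes and 5 genes of the CSLF and CSLH families. The other 26, among them 15 alpha-expansins and 3 CSLF genes, were not analysed here.

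All plants were the japonica cultivar Nipponbare, grown from germinated seed in hydroponic culture with 1 mM ammonium and no other nitrogen source, and the basal 5 mm of the shoots was harvested for RNA. The groups were wild type at 7 d, homozygous gs1;2 at 7 d, wild type at 11 d and homozygous gs1;2 at 11 d, with 3 Affymetrix Rice Genome Arrays each that the design text calls biological replicates. The mutation affects GLN1-2, the gene of cytosolic glutamine synthetase 1;2, which joins ammonium to glutamate. Whether the mutant plants came from more than 1 line, and how many plants were pooled per array, is not given in the sources used here.

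A growing plant cell is held by a wall of cellulose microfibrils in a matrix of other polysaccharides, and it enlarges when that wall yields to turgor. Expansins loosen the wall without cutting its polymers, alpha-expansins in all flowering plants and beta-expansins in particularly large number in grasses, whereas XTH enzymes cut and rejoin xyloglucan chains. The CSL families make matrix polysaccharides: CSLF and CSLH proteins the mixed-linkage glucan that is characteristic of grass primary walls, CSLA proteins mannans, and CSLC proteins the backbone of xyloglucan. Growing grass shoots hold their dividing and elongating leaf cells near the base, the part that was harvested here.

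The targeted gene was read first. GLN1-2 gave log2 signals of 12.31 to 12.50 in the 6 wild-type arrays and 7.65 to 7.80 in the mutant at 7 d. Arrays labelled gs1;2 at 11 d gave 8.37, 8.65 and 11.44, so the array labelled gs1;2 11 d replicate 3 goes against its label for this gene, and results that rest on it are given with and without it. Correlations over all probe sets were 0.994 to 0.997 within groups and 0.987 to 0.995 between groups other than wild type at 11 d, whose arrays correlated with all others at 0.978 to 0.985. The growth description also assigns a numbered range of samples to another chamber and lamp with a longer culture. The numbers in the titles of the wild-type 11 d arrays, and of no other group, fall in that range, and the titles also carry a round (3rd or 4th) that coincides with age. Whether the range refers to these titles is not given, so another growth condition of wild type at 11 d cannot be told apart from genotype at 11 d or from age in wild type. The same wild-type 11 d arrays enter the genotype comparison at 11 d, the age comparison in wild type and the interaction, which are therefore not independent of each other. OSH1, a homeobox gene of the shoot meristem, had group means of 11.50 to 11.67, so that this marker of the labelled tissue was expressed.

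The largest called differences by genotype among the 50 genes were those of EXLA1, CSLF6 and EXLA2 at 11 d. The expansin-like genes EXLA1 and EXLA2 were 5.63-fold and 3.62-fold lower in the mutant than in wild type, whereas the expansin-like gene EXLA4 was 2.08-fold higher. The mixed-linkage glucan synthase gene CSLF6 was 3.80-fold higher, and alpha- and beta-expansins differed in both directions. At 7 d the same comparison called 1 gene, EXPA29. A gene was called where the adjusted p of limma's test was under 0.05, with p-values adjusted by Benjamini-Hochberg over all 57194 probe sets, and a difference is mutant minus wild type, or 11 d minus 7 d, as log2 values whose standard errors (SE) come from the fit. In bulk tissue, fewer cells of a type and less RNA per cell cannot be told apart.

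Across the 50 genes, 0 were called higher and 1 lower in the mutant at 7 d, against 0.787% and 0.464% of the 17905 genes, with a median difference of 0.00 beside 0.009 over all genes. At 11 d, 12 were higher (24.0%) and 11 lower (22.0%), against 23.9% and 22.8% of all genes, and the median was 0.10 beside 0.022. From 7 to 11 d, 11 rose and 14 fell in wild type (25.5% and 28.4% of all genes), with a median of -0.14 beside -0.026. In the mutant 7 rose and 5 fell with age (6.51% and 8.98% of all genes), with a median of 0.04 beside -0.014. The genotype difference itself changed between the ages in 18 genes, upward in 9 and downward in 9, against 18.6% and 19.6% of all genes. At 11 d and in the age and interaction comparisons, the shares called thus lay near those of all genes, except that 14.0% of the members and 6.51% of all genes rose with age in the mutant. Without mutant 11 d replicate 3 the counts were 21 at 11 d (13 higher, 8 lower), 8 for age in the mutant (4 higher, 4 lower) and 17 for the interaction (9 higher, 8 lower). In fits without any 1 mutant array, 2 to 4 members rose with age in the mutant, against 7 with all arrays. The shares of all genes in those fits were not counted, so the exception is not firm.

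**Figure D1:**
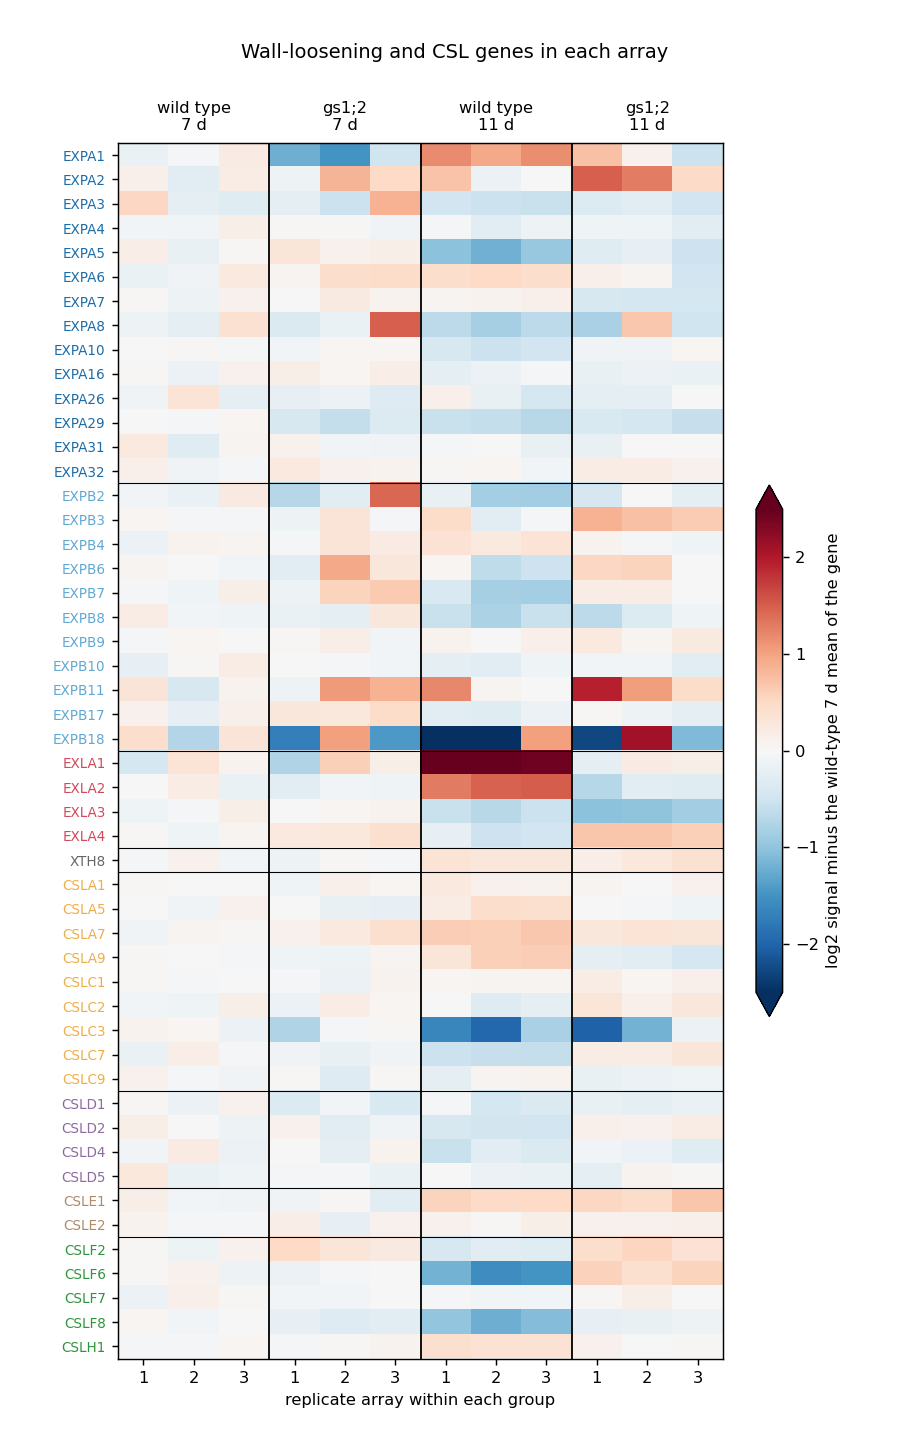
Log2 signal of each of the 50 genes (rows, grouped by family) in each of the 12 arrays (columns, 3 per group), minus the mean of the gene in wild type at 7 d; colours saturate at the ends of the bar. EXLA1 and EXLA2 are red and CSLF6 and CSLF8 blue in the wild-type arrays at 11 d, while a few expansins such as EXPB18 vary between arrays of the same group.

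Of the 50 genes, 38 had a mean signal at or above 4.98, the median over all probe set means, and 12 lay below it. In at least 1 comparison 31 were called, and of the 19 that were called in none, 11 had a signal below that median. The share of all genes called in at least 1 comparison was not counted, so these numbers are not read as particular to the 50 genes. Signals of different probe sets do not rank the transcripts they measure, so levels are compared below only between groups of arrays for the same gene.

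**Figure D2:**
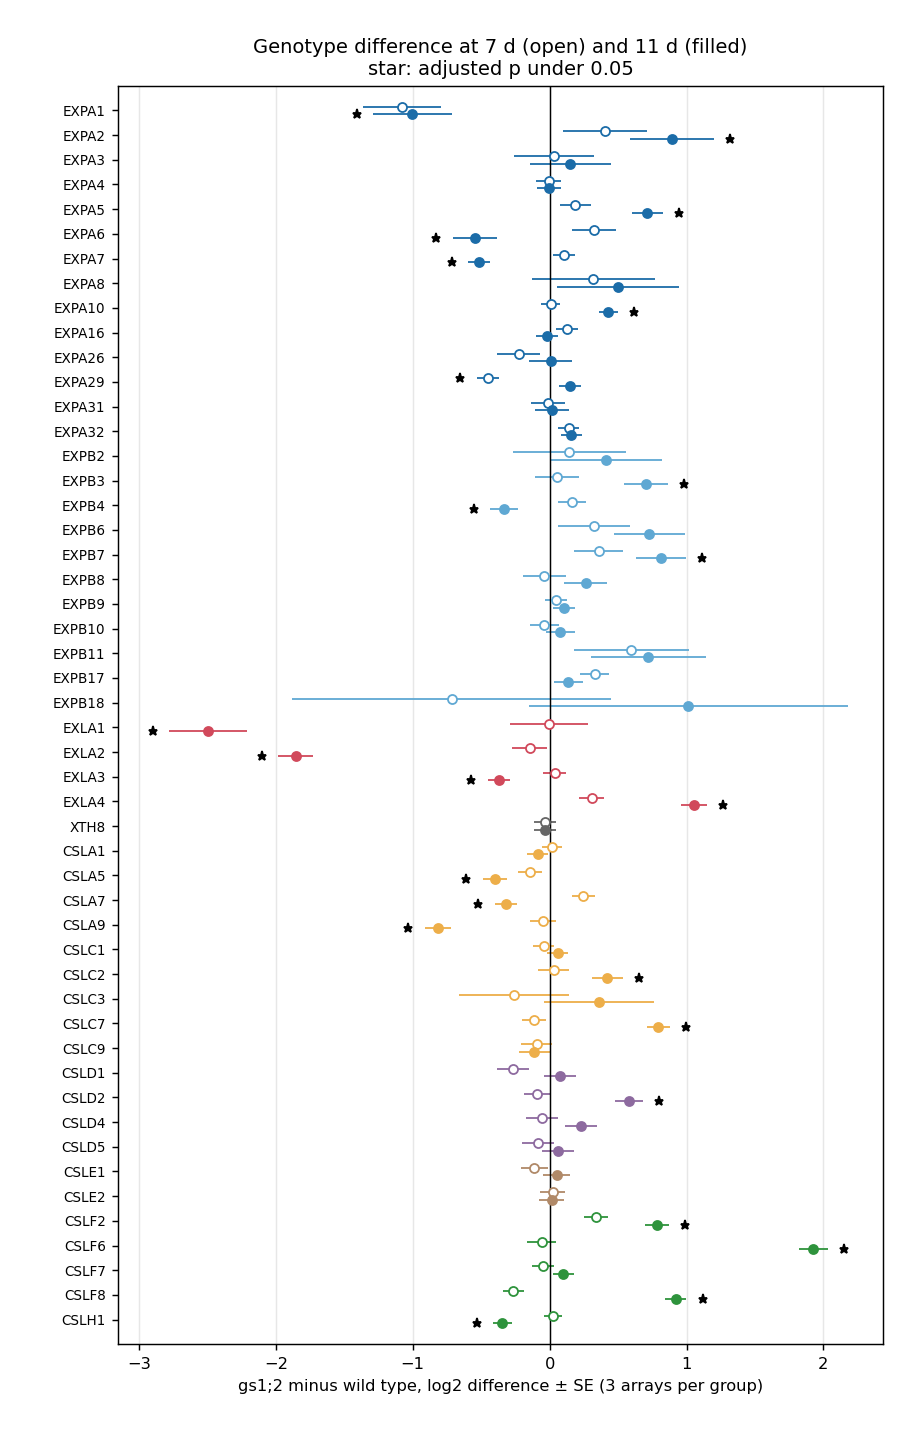
Difference mutant (gs1;2) minus wild type (log2, ± SE of the fit, 3 arrays per group) of each of the 50 genes at 7 d (open points) and 11 d (filled points), with a star where the adjusted p was under 0.05. Open points carry 1 star, at EXPA29, and filled points 23, from EXLA1 at -2.49 to CSLF6 at 1.93.

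Alpha-expansins are the classical mediators of acid-induced wall extension, and at 11 d 3 of the 14 were higher in the mutant, 3 were lower and 8 were not called. The shares, 21.4% higher and 21.4% lower, lay near the 23.9% and 22.8% of all genes. The uncalled differences ranged from -0.02 to 0.50. At 7 d EXPA29 was the sole called member. Its log2 signals were 8.26, 8.23 and 8.31 in wild type and 7.86, 7.67 and 7.92 in the mutant, so the groups did not overlap. The difference was -0.45 (SE 0.08, adjusted p = 0.0297), but in fits without any of the wild-type 7 d replicates 1, 2 and 3 or the mutant 7 d replicates 2 and 3 the adjusted p lay between 0.0501 and 0.0899. In wild type EXPA29 fell by 0.61 (SE 0.08, adjusted p = 0.000114) from 7 to 11 d, to 7.71, 7.68 and 7.58.

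EXPA5 was lowest in wild type at 11 d. Its signals at 11 d were 10.06, 9.88 and 10.15 in wild type and 10.78, 10.88 and 10.57 in the mutant, after 10.90 to 11.26 and 11.19 to 11.40 at 7 d. Every wild-type value at 11 d lay below every other value of the gene. The difference at 11 d was 0.71 (SE 0.11, adjusted p = 0.000503), and 0.80 without mutant 11 d replicate 3. EXPA5 fell with age in both genotypes, by 1.06 in wild type (SE 0.11, adjusted p = 1.94e-05) and by 0.54 in the mutant (SE 0.11, adjusted p = 0.0111). The change of the genotype difference was 0.53 (SE 0.16, adjusted p = 0.0355). It was not called without wild-type 7 d replicate 1 or 3, mutant 7 d replicate 2 or 3, wild-type 11 d replicate 1 or 2, or mutant 11 d replicate 1 or 2, where the adjusted p reached 0.0905.

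EXPA10, which in rice roots is known as an aluminium-induced gene of cell elongation, gave 9.39, 9.26 and 9.31 in wild type at 11 d and 9.70, 9.71 and 9.83 in the mutant. The gene was higher in the mutant by 0.43 (SE 0.07, adjusted p = 0.00055), and it fell by 0.48 with age in wild type (SE 0.07, adjusted p = 0.000189). In the mutant its group means were 9.80 at 7 d and 9.75 at 11 d. EXPA2 was higher in the mutant at 11 d with 11.13, 10.91 and 10.10 against 10.35, 9.49 and 9.62, and here the groups overlapped. Its difference of 0.89 (SE 0.31, adjusted p = 0.049) was not called without any of wild-type 7 d replicates 1 to 3, mutant 7 d replicate 3, wild-type 11 d replicates 2 or 3, or mutant 11 d replicates 1 or 2 (adjusted p up to 0.182). Without mutant 11 d replicate 3 it was 1.20 (adjusted p = 0.0103).

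EXPA7 had similar signals in 3 groups and was lower in the mutant at 11 d. It gave 10.81 to 11.05 in wild type and 10.94 to 11.17 in the mutant at 7 d, 11.00, 11.02 and 11.06 in wild type at 11 d, and 10.54, 10.50 and 10.50 in the mutant at 11 d. No other array of the gene was as low as these. The difference at 11 d was -0.51 (SE 0.08, adjusted p = 0.000459), it was the same without replicate 3 of the mutant, and the gene fell by 0.53 with age in the mutant (SE 0.08, adjusted p = 0.0014). Both other probe sets of EXPA7 had signals near 4 and were not called, with -0.16 and 0.15 at 11 d.

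EXPA1 and EXPA6 were also lower in the mutant at 11 d, with less certainty. EXPA1 gave 9.09, 8.86 and 9.07 in wild type and 8.64, 8.01 and 7.37 in the mutant, and at 7 d 7.75, 7.88 and 8.12 against 6.68, 6.42 and 7.41. The groups were apart at both ages. The difference was -1.0 at 11 d (SE 0.29, adjusted p = 0.021) and -1.08 at 7 d, where it was not called, and the gene rose with age by 1.09 in wild type (SE 0.29, adjusted p = 0.0105) and by 1.17 in the mutant (SE 0.29, adjusted p = 0.0243). The call at 11 d was lost without wild-type 11 d replicate 1 or 3 or mutant 11 d replicate 2 or 3 (adjusted p from 0.0545 to 0.0808), and the difference was -0.68 without replicate 3 of the mutant. The rise in the mutant was not called without mutant 7 d replicate 1 or 2 or mutant 11 d replicate 1 or 2 (adjusted p from 0.0668 to 0.09). EXPA6 gave 10.72, 10.77 and 10.71 in wild type at 11 d and 10.41, 10.34 and 9.80 in the mutant, a difference of -0.55 (SE 0.16, adjusted p = 0.025). Without replicate 3 of the mutant, the lowest array, the EXPA6 difference was -0.35 (adjusted p = 0.0926), and the call was also lost without wild-type 11 d replicate 1, 2 or 3. Its rise of 0.46 with age in wild type (SE 0.16, adjusted p = 0.0484) was not called without wild-type 7 d replicate 1 or 2, mutant 7 d replicate 2 or 3, wild-type 11 d replicate 1, 2 or 3, or mutant 11 d replicate 2 (adjusted p up to 0.162).

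Beta-expansins include proteins of grass pollen as well as wall-loosening proteins of leaves and stems. At 11 d 2 of the 11 were higher in the mutant and 1 was lower (18.2% and 9.09%, against 23.9% and 22.8% of all genes). The other 8 were not called, with differences from 0.08 to 1.01. EXPB7 gave 8.07, 7.63 and 7.61 in wild type and 8.65, 8.64 and 8.47 in the mutant. The groups did not overlap, and the difference was 0.81 (SE 0.18, adjusted p = 0.00483). In wild type EXPB7 fell by 0.69 with age (SE 0.18, adjusted p = 0.0104), as did EXPB8, 1 gene apart from it on the chromosome, by 0.64 (SE 0.16, adjusted p = 0.00754). EXPB8 was at 5.28, 5.04 and 5.29 in wild type and 5.18, 5.50 and 5.73 in the mutant at 11 d, and its genotype difference of 0.26 was not called.

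EXPB6, EXPB2, EXPB3 and EXPB4 follow each other directly in the gene table, and EXPB3, EXPB4 and EXPB6 are known from the growing internodes of deepwater rice. EXPB3 gave 12.34, 11.62 and 11.84 in wild type at 11 d and 12.76, 12.62 and 12.52 in the mutant. Every mutant value was above every wild-type value, with a difference of 0.70 (SE 0.16, adjusted p = 0.00567). EXPB3 rose by 0.69 with age in the mutant (SE 0.16, adjusted p = 0.0186), a call that was lost without mutant 7 d replicate 1 or 3 or mutant 11 d replicate 1 or 2 (adjusted p from 0.0527 to 0.0755). In wild type its means were 11.89 and 11.93.

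EXPB4, the next gene, went the other way: 12.10, 11.98 and 12.07 in wild type at 11 d against 11.81, 11.71 and 11.62 in the mutant. The groups were apart and the difference was -0.33 (SE 0.10, adjusted p = 0.0281), but the call was lost without wild-type 11 d replicate 1 or 3 or mutant 11 d replicate 2 or 3 (adjusted p from 0.0739 to 0.0987; without replicate 3 of the mutant, -0.29). The change of its genotype difference, -0.49 (SE 0.14, adjusted p = 0.0273), lost its call in 7 of 12 fits that each left out 1 array (adjusted p from 0.056 to 0.0642). These arrays were replicates 2 and 3 of the mutant at both ages, replicates 1 and 3 of wild type at 11 d and replicate 1 of wild type at 7 d. Its rise of 0.31 in wild type (SE 0.10, adjusted p = 0.0321) was not called without wild-type 7 d replicate 1 or wild-type 11 d replicate 1 or 3 (adjusted p up to 0.126). The probe set of EXPB4 is of a type that may detect similar transcripts, so that part of its signal may come from related genes. EXPB6 (0.73, SE 0.26, adjusted p = 0.0601) and EXPB2 (0.41, SE 0.41, adjusted p = 0.543) were not called. Without mutant 11 d replicate 3 EXPB6 was called, at 0.90 (adjusted p = 0.0364).

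EXPB17 fell with age in the mutant, from 10.26, 10.25 and 10.43 to 10.00, 9.86 and 9.75, by 0.44 (SE 0.10, adjusted p = 0.0191). In wild type it gave 10.08, 9.77 and 10.11 at 7 d and 9.70, 9.68 and 9.83 at 11 d, where the groups overlapped and the gene was not called. The call in the mutant was lost without mutant 7 d replicate 3 or mutant 11 d replicate 2 or 3 (adjusted p from 0.0596 to 0.081), and without replicate 3 at 11 d the difference was -0.38. EXPB18 was the least repeatable member. Its signals spanned 2.67 to 6.46 in wild type at 11 d and 3.16 to 7.52 in the mutant, and the interval of its genotype difference at 11 d reached from -1.52 to 3.55.

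Expansin-like A proteins share the fold of expansins, but no wall-loosening activity is established for them. All 4 measured genes were called at 11 d, 3 lower and 1 higher in the mutant, against 22.8% and 23.9% of all genes. EXLA1 gave 11.58, 11.77 and 11.53 in wild type at 11 d and 8.87, 9.29 and 9.23 in the mutant. At 7 d it gave 8.66, 9.44 and 9.17 in wild type and 8.33, 9.69 and 9.23 in the mutant. The 3 wild-type arrays at 11 d stood more than 1 log2 unit above all other arrays, which overlapped among themselves. The difference at 11 d was -2.49 (SE 0.28, adjusted p = 3.97e-05), and -2.54 without mutant 11 d replicate 3. From 7 to 11 d EXLA1 rose by 2.54 in wild type (SE 0.28, adjusted p = 2.65e-05), while its group means in the mutant were 9.08 and 9.13. The change of the genotype difference was -2.49 (SE 0.40, adjusted p = 0.000914).

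EXLA2 gave 9.79, 9.98 and 10.01 in wild type at 11 d and 7.78, 8.23 and 8.19 in the mutant, after 8.34 to 8.68 and 8.23 to 8.43 at 7 d. Again only the wild-type arrays at 11 d were high. The difference was -1.86 (SE 0.13, adjusted p = 1.14e-06), and -1.92 without mutant 11 d replicate 3. A further probe set of EXLA2, of a type that may cross-hybridise, gave -1.87 (adjusted p = 1.2e-06). It shares its sequence identifier with the first probe set, so they may not be independent. EXLA2 rose by 1.42 in wild type with age (SE 0.13, adjusted p = 5.39e-06), and its difference of -0.29 in the mutant was not called.

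EXLA3 fell with age in both genotypes, from 9.14, 9.19 and 9.39 to 8.69, 8.55 and 8.70 in wild type and from 9.23, 9.28 and 9.32 to 8.22, 8.24 and 8.37 in the mutant. The ages did not overlap in either genotype. The fall was 0.59 in wild type (difference -0.59, SE 0.08, adjusted p = 0.000137) and larger in the mutant (-1.0, SE 0.08, adjusted p = 2.08e-05), which left EXLA3 lower in the mutant at 11 d by 0.37 (difference -0.37, SE 0.08, adjusted p = 0.005; difference -0.42 without mutant 11 d replicate 3). The difference between these falls was -0.41 (SE 0.12, adjusted p = 0.0266), and it was not called without wild-type 7 d replicate 1 or 2, mutant 7 d replicate 3, wild-type 11 d replicate 1 or 3, or mutant 11 d replicate 1 or 2 (adjusted p up to 0.0674).

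EXLA4 was the member of the family that was higher in the mutant, with 6.29, 5.97 and 6.02 in wild type at 11 d against 7.18, 7.19 and 7.08. The groups lay far apart, and the difference was 1.05 (SE 0.09, adjusted p = 6.03e-06; difference 1.09 without mutant 11 d replicate 3). EXLA4 fell by 0.40 in wild type (SE 0.09, adjusted p = 0.00505) and rose by 0.35 in the mutant (SE 0.09, adjusted p = 0.0348) with age. The rise in the mutant was not called without mutant 7 d replicate 1 or 2 or any of mutant 11 d replicates 1, 2 and 3 (adjusted p from 0.0568 to 0.112).

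XTH8, known in rice to respond to gibberellin, rose with age in both genotypes and was not called by genotype. It was the only XTH gene that the name rule found, and XTH genes under other names were not looked for. XTH8 gave 11.29, 11.43 and 11.26 in wild type and 11.21, 11.36 and 11.31 in the mutant at 7 d, then 11.67, 11.62 and 11.62 and 11.50, 11.60 and 11.72 at 11 d. In each genotype all values at 11 d were above those at 7 d. XTH8 rose by 0.31 in wild type (SE 0.08, adjusted p = 0.00859) and by 0.32 in the mutant (SE 0.08, adjusted p = 0.0278), the latter not called without mutant 7 d replicate 1 or 3 or mutant 11 d replicate 2 or 3 (adjusted p from 0.0694 to 0.112; difference 0.26 without mutant 11 d replicate 3). The genotype difference at 11 d was -0.03, with a 95% interval from -0.20 to 0.14.

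**Figure D3:**
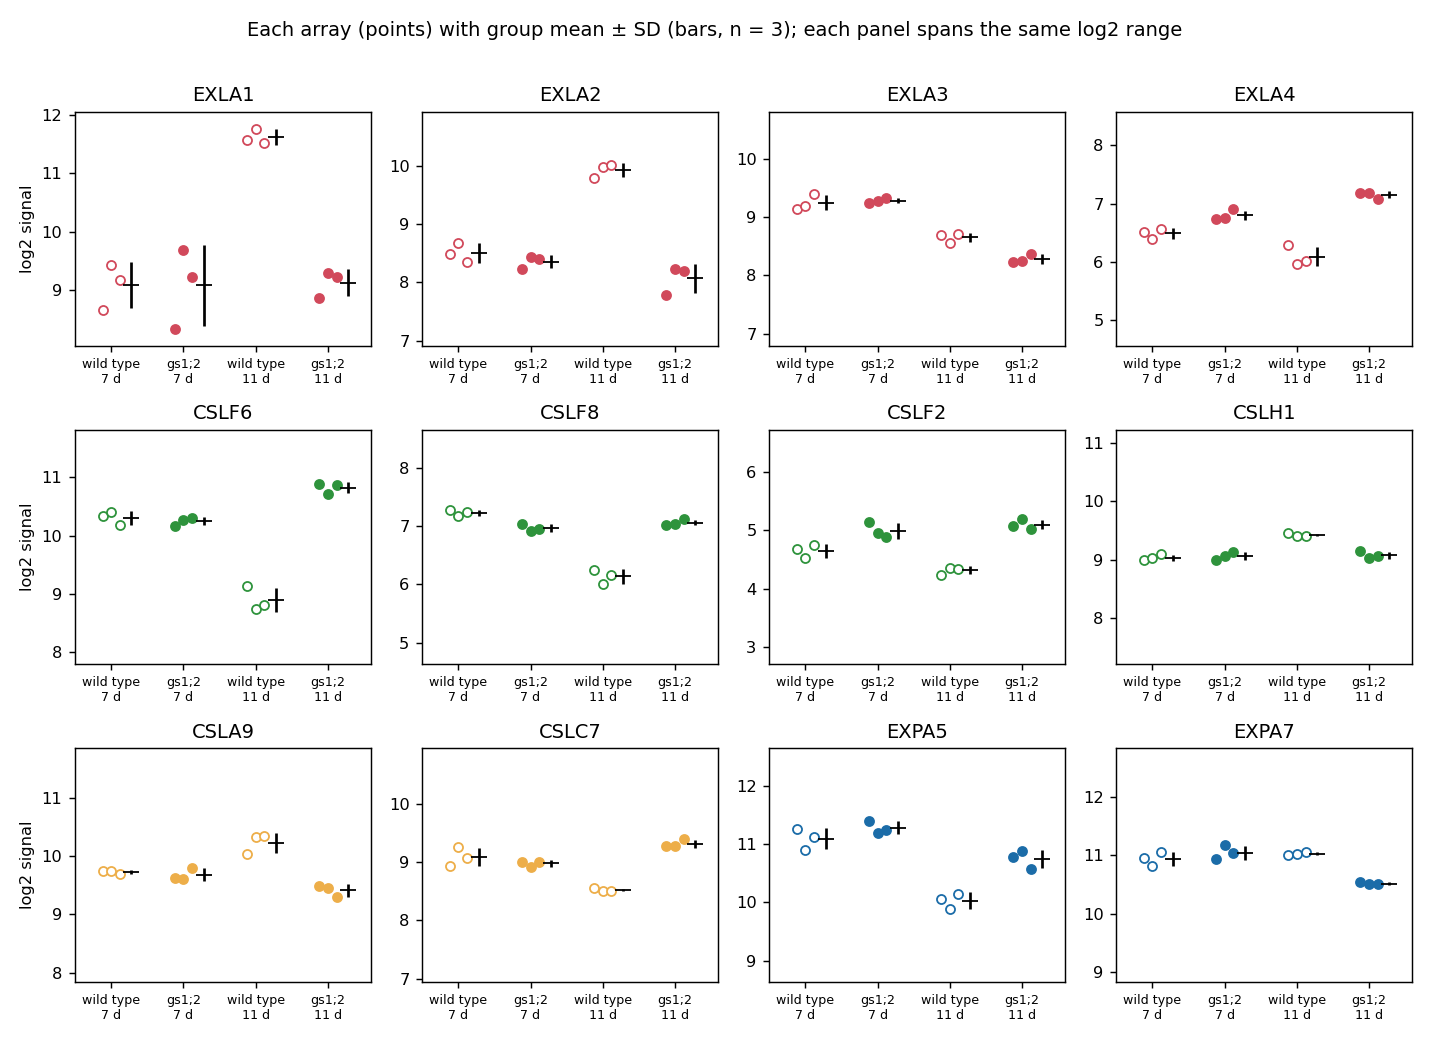
Log2 signal of 12 members in each array (open points wild type, filled points the gs1;2 mutant) with the mean ± SD of each group (bars, n = 3); panels span equal log2 ranges but have their own levels. The wild-type arrays at 11 d stand apart in EXLA1 and EXLA2 (high) and in CSLF6 and CSLF8 (low), and the mutant arrays at 11 d stand apart in EXPA7 (10.50 to 10.54).

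The CSLF and CSLH genes, which make mixed-linkage glucan, held 3 members that were higher and 1 that was lower in the mutant at 11 d, and 1 that was not called. Of all genes 23.9% were higher and 22.8% lower. CSLF6, whose product is the main mixed-linkage glucan synthase of rice, gave 9.13, 8.75 and 8.81 in wild type at 11 d and 10.88, 10.72 and 10.87 in the mutant. At 7 d it gave 10.33, 10.41 and 10.18 in wild type and 10.17, 10.26 and 10.31 in the mutant, which overlapped. The wild-type arrays at 11 d were thus the lowest of the 12, by more than 1 log2 unit, and the mutant arrays at 11 d the highest. CSLF6 was higher in the mutant by 1.93 (SE 0.10, adjusted p = 2.61e-07; difference 1.90 without mutant 11 d replicate 3). With age CSLF6 fell by 1.41 in wild type (SE 0.10, adjusted p = 1.81e-06) and rose by 0.58 in the mutant (SE 0.10, adjusted p = 0.00422), and the change of the genotype difference was 1.98 (SE 0.15, adjusted p = 1.12e-05). Both other probe sets of CSLF6 were dim, with group means of 2.80 to 3.28 and uncalled differences of 0.06 and -0.0032 at 11 d, so the result rests on 1 probe set.

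CSLF8 and CSLF2 lie with 1 gene between them, in a cluster that also holds CSLF9, CSLF4 and CSLF3, which were not analysed here. CSLF8 gave 6.25, 6.0 and 6.15 in wild type at 11 d against 7.02, 7.04 and 7.11 in the mutant, and 7.17 to 7.27 and 6.91 to 7.03 at 7 d. As for CSLF6, the wild-type arrays at 11 d were the lowest. The difference was 0.92 (SE 0.08, adjusted p = 4.56e-06), and in wild type CSLF8 fell by 1.09 (SE 0.08, adjusted p = 1.46e-06), whereas the difference of 0.10 with age in the mutant was not called. CSLF2 gave 4.24, 4.36 and 4.34 in wild type and 5.08, 5.19 and 5.02 in the mutant at 11 d, a difference of 0.78 (SE 0.09, adjusted p = 4.14e-05). CSLF2 was 0.34 higher in the mutant at 7 d too, with no overlap but without a call (adjusted p = 0.0992). Its change of the genotype difference, 0.44 (SE 0.13, adjusted p = 0.0254), was not called without wild-type 7 d replicate 1 or 3, mutant 7 d replicate 2 or 3, wild-type 11 d replicate 1 or mutant 11 d replicate 2 (adjusted p up to 0.0673).

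CSLH1, whose barley counterpart makes the same glucan when expressed in Arabidopsis, went against CSLF6. It gave 9.45, 9.41 and 9.41 in wild type at 11 d and 9.14, 9.03 and 9.06 in the mutant, with 8.99 to 9.09 and 8.99 to 9.13 at 7 d. The wild-type arrays at 11 d were the highest, and the other groups overlapped. CSLH1 was lower in the mutant by 0.34 (difference -0.34, SE 0.07, adjusted p = 0.00206) and rose by 0.39 in wild type with age (SE 0.07, adjusted p = 0.000679). CSLF7 had signals of 2.24 to 2.52 in all arrays and was called in no comparison.

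Among the 9 genes of the CSLA and CSLC families, 2 were higher and 3 lower in the mutant at 11 d (22.2% and 33.3%, against 23.9% and 22.8% of all genes). The 3 that were lower are CSLA genes and the 2 that were higher are CSLC genes, and the other 4 were not called, with differences from -0.11 to 0.36. CSLA9, of the mannan synthase family, gave 10.03, 10.32 and 10.34 in wild type at 11 d and 9.49, 9.46 and 9.29 in the mutant. These groups did not overlap, and the values at 7 d (9.61 to 9.80 over both genotypes) lay between them. The difference was -0.82 (SE 0.10, adjusted p = 4.95e-05; difference -0.76 without mutant 11 d replicate 3), and CSLA9 rose by 0.50 in wild type (SE 0.10, adjusted p = 0.00134). The symbol CSLA9 is also a synonym of CSLA1 in the gene table, and CSLA1, on another probe set, was called in no comparison (11.14 to 11.49 in all arrays).

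CSLA5 and CSLA7 were lower in the mutant at 11 d by 0.40 (difference -0.40, SE 0.09, adjusted p = 0.00525) and 0.32 (difference -0.32, SE 0.08, adjusted p = 0.0121). CSLA5 gave 8.51, 8.75 and 8.73 in wild type against 8.31, 8.28 and 8.21, and CSLA7 9.35, 9.32 and 9.41 against 9.02, 9.07 and 9.03, with no overlap in either gene. Without wild-type 11 d replicate 3, CSLA7 had an adjusted p of 0.0502. Both rose with age in wild type, CSLA5 by 0.34 (SE 0.09, adjusted p = 0.0109; 0.0507 without wild-type 11 d replicate 2) and CSLA7 by 0.62 (SE 0.08, adjusted p = 9.23e-05). In the mutant neither was called.

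CSLC7, of the family that makes the xyloglucan backbone, gave 8.55, 8.51 and 8.50 in wild type at 11 d and 9.27, 9.27 and 9.40 in the mutant. At 7 d the values were 8.93, 9.26 and 9.07 against 9.01, 8.91 and 9.01. The wild-type arrays at 11 d were the lowest and those of the mutant at 11 d the highest. The difference was 0.79 (SE 0.09, adjusted p = 2.64e-05; difference 0.75 without mutant 11 d replicate 3), and with age CSLC7 fell by 0.57 in wild type (SE 0.09, adjusted p = 0.000236) and rose by 0.34 in the mutant (SE 0.09, adjusted p = 0.0268). The rise was not called without mutant 7 d replicate 2 or 3 or any of mutant 11 d replicates 1, 2 and 3 (adjusted p from 0.0583 to 0.102). The probe set of CSLC7 is of a type that may cross-hybridise.

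CSLC2 was higher in the mutant at 11 d by 0.42 (SE 0.11, adjusted p = 0.0152), with 6.88, 6.56 and 6.64 against 7.18, 7.00 and 7.16. The groups did not overlap, but the call was lost without wild-type 11 d replicate 2 or 3 or mutant 11 d replicate 1 (adjusted p from 0.0562 to 0.0713). CSLC3 fell with age in wild type, from 7.46, 7.42 and 7.22 to 5.73, 5.41 and 6.55, by 1.47 (SE 0.40, adjusted p = 0.0133; 0.0607 without wild-type 11 d replicate 2). In the mutant CSLC3 gave 6.61, 7.32 and 7.39 at 7 d and 5.34, 6.19 and 7.23 at 11 d, and the ages overlapped only through mutant 11 d replicate 3, at 7.23. Its age difference in the mutant was -0.85 (SE 0.40, adjusted p = 0.265) with that array and -1.34 (adjusted p = 0.0368) without it, so that the fall was called only without it. The difference between the age changes of CSLC3 in the mutant and in wild type was 0.62 (adjusted p = 0.518), and 0.13 (adjusted p = 0.89) without that array.

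CSLD proteins are known for cell wall synthesis at growing tips and cell plates. Of the 4 genes, 1 was higher in the mutant at 11 d, as were 23.9% of all genes. The differences of the other 3 ranged from 0.06 to 0.23 without a call. CSLD2 gave 8.29, 8.24 and 8.21 in wild type at 11 d and 8.81, 8.79 and 8.87 in the mutant, with 8.56 to 8.83 and 8.40 to 8.80 at 7 d. The wild-type values at 11 d were the lowest. The difference was 0.58 (SE 0.10, adjusted p = 0.000878), and CSLD2 fell by 0.45 with age in wild type (SE 0.10, adjusted p = 0.00385). CSLD4, mutants of which have narrow leaves in rice, fell by 0.41 in wild type (SE 0.12, adjusted p = 0.0185) from 7.00, 7.27 and 6.92 to 6.51, 6.78 and 6.69. That call was lost without wild-type 7 d replicate 2 or wild-type 11 d replicate 1 (adjusted p from 0.0772 to 0.0829), and in the mutant the values at 7 d (6.81 to 7.15) and 11 d (6.76 to 6.99) overlapped. Like that of CSLC7, the probe set of CSLD4 is of a type that may cross-hybridise.

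The product of CSLE enzymes is not known with certainty, and neither CSLE gene was called by genotype. CSLE1 rose with age in both genotypes, from 8.10, 7.90 and 7.87 to 8.51, 8.44 and 8.45 in wild type and from 7.88, 7.98 and 7.68 to 8.48, 8.42 and 8.65 in the mutant. At 11 d all arrays were above all those at 7 d. The rises were 0.51 (SE 0.10, adjusted p = 0.00133) and 0.67 (SE 0.10, adjusted p = 0.00098). CSLE2 gave 8.65 to 9.01 in all arrays with its brightest probe set, a difference of 0.02 at 11 d. Its other probe sets disagreed with this one, at -1.03 (adjusted p = 3.24e-06) and -0.46 (adjusted p = 0.00216), so the direction of CSLE2 at 11 d depends on the probe set. The probe set at -1.03 is of a type that may cross-hybridise.

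**Figure D4:**
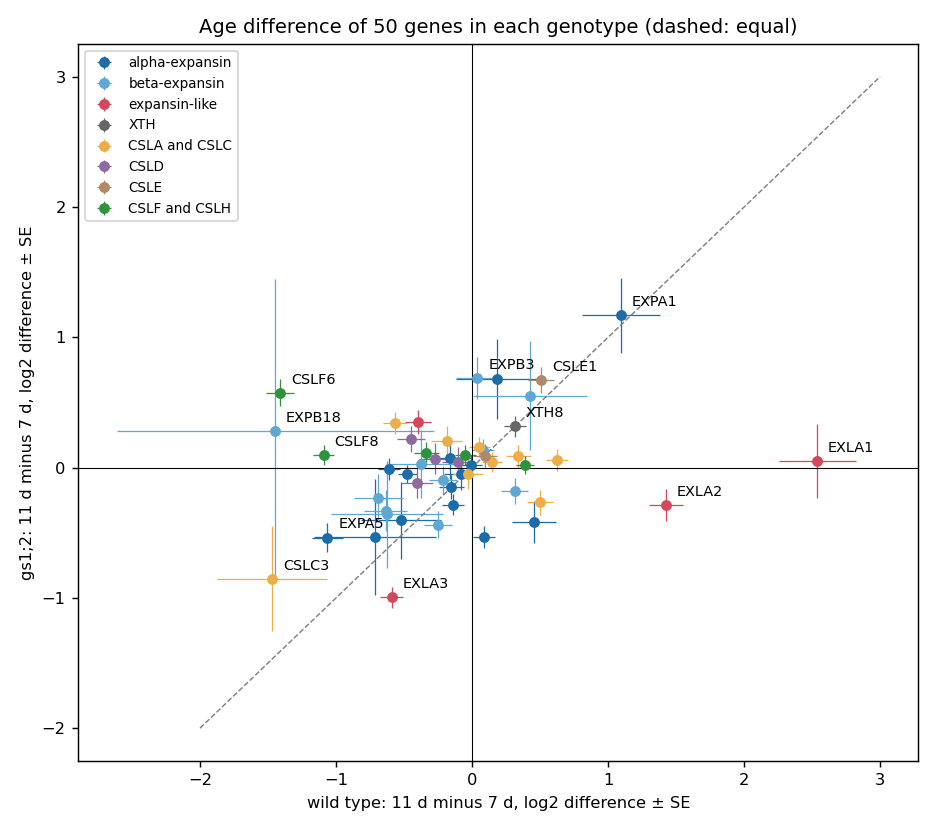
Difference 11 d minus 7 d (log2, ± SE of the fit) of the 50 genes in wild type (horizontal axis) and the mutant gs1;2 (vertical axis), coloured by family, with a dashed line where both are equal. EXPA1, XTH8 and CSLE1 lie near the line, EXLA1 and EXLA2 far to the right (2.54 and 1.42 in wild type), and CSLF6 to the upper left (-1.41 and 0.58).

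For the remaining calls that include mutant 11 d replicate 3, the sign and the call held without that array. The genotype differences at 11 d were then 0.39 for EXPA10, 0.87 for EXPB7, 0.76 for EXPB3, 0.89 for CSLF8, 0.82 for CSLF2, -0.34 for CSLH1, -0.37 for CSLA5, -0.31 for CSLA7, 0.40 for CSLC2 and 0.56 for CSLD2. The age differences in the mutant were then 0.61 for CSLE1, 0.55 for CSLF6, 0.74 for EXPB3, 1.49 for EXPA1, -1.04 for EXLA3, -0.45 for EXPA5 and -0.53 for EXPA7. The calls lost without it are named with their genes above, to which EXPA16 adds its fall of 0.29 in the mutant (difference -0.29, adjusted p = 0.0484, and 0.111 without the array).

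The age differences of both genotypes were set side by side. In wild type the 4 largest called changes were those of EXLA1 (2.54), CSLC3 (-1.47), EXLA2 (1.42) and CSLF6 (-1.41), and in the mutant the values of these genes were 0.05, -0.85, -0.29 and 0.58, of which only CSLF6 was called. Without mutant 11 d replicate 3 the fall of CSLC3 in the mutant was called too, at -1.34. The interaction test called a difference between the genotypes for EXLA1, EXLA2 and CSLF6 and not for CSLC3. In the mutant the largest called changes were EXPA1 (1.17), EXLA3 (-1.0), EXPB3 (0.69) and CSLE1 (0.67), for which wild type gave 1.09, -0.59, 0.04 and 0.51. Of these only EXLA3 was called by the interaction test, with adjusted p of 0.93 for EXPA1, 0.0634 for EXPB3 and 0.469 for CSLE1. The number of calls for age in the mutant, 12, ranged from 5 to 12 when 1 array was left out, with 7 without mutant 7 d replicate 1 or 3 or mutant 11 d replicate 1, and 5 without mutant 11 d replicate 2.

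Other genes of wall building were read from a list of 17. The list was chosen with earlier results of these data known, so its counts describe the listed genes and are no test of them. At 11 d 14 were higher in the mutant and 1 was lower, against 23.9% and 22.8% of all genes. The median was 0.76 beside 0.022 over all genes. Of the 6 cellulose synthase genes of the primary wall 5 were higher, with CESA5 at 0.98 (SE 0.08, adjusted p = 5.59e-06), CESA6 at 1.16 (SE 0.14) and CESA1 at 0.76 (SE 0.10), and all 3 of the secondary wall, CESA4 (0.95), CESA7 (1.03) and CESA9 (0.69), were higher too. BC1, a COBRA-like gene needed for the strength of secondary walls, was higher by 2.41 (SE 0.16), and UGD4 and UGD3, which encode UDP-glucose dehydrogenases that make the precursor of xylan and other matrix sugars, by 1.51 (SE 0.12) and 1.26 (SE 0.11). In wild type 2 of the 17 rose with age and 12 fell (25.5% and 28.4% of all genes). In the mutant 8 rose and 0 fell (6.51% and 8.98% of all genes). The mutant values at 11 d for this list include replicate 3 and were not read without it. At 7 d 0 were higher and 3 lower in the mutant (0.787% and 0.464% of all genes). These were CESA4 (-0.66, adjusted p = 0.0439), CESA7 (-0.71, adjusted p = 0.0482) and BC1 (-0.90, adjusted p = 0.028). CESA4 and CESA7 lay close to the threshold, and CESA9 just missed it (-0.68, adjusted p = 0.0502). Fits that leave out an array were not read for these genes.

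**Figure D5:**
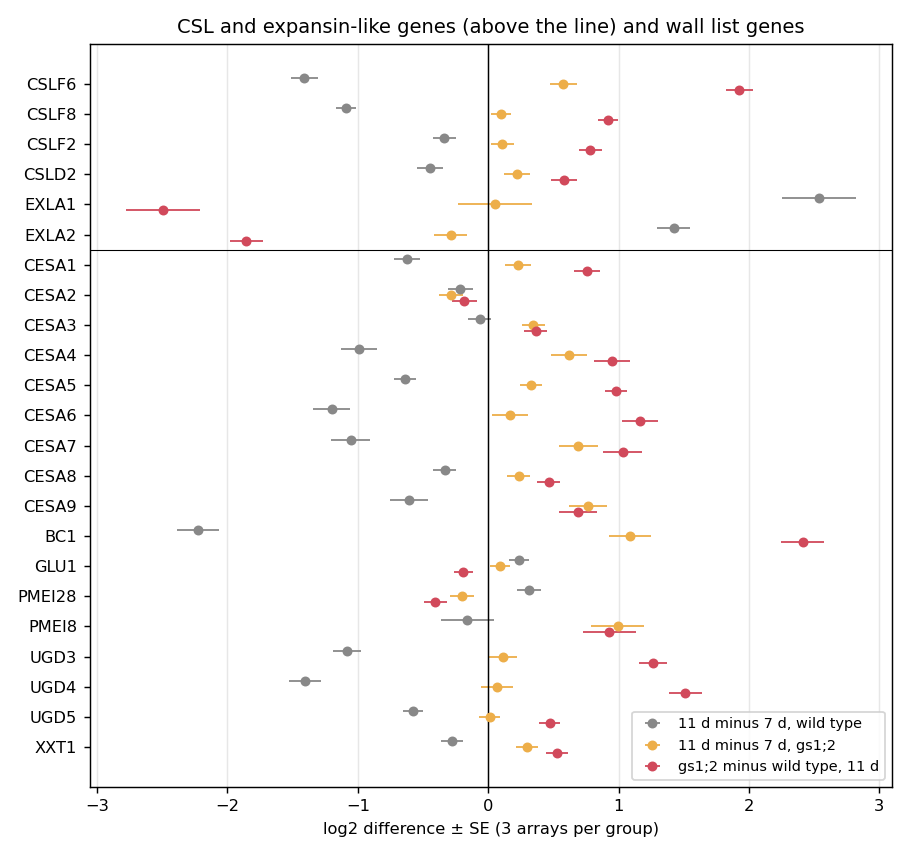
Differences (log2, ± SE of the fit, 3 arrays per group) of 6 CSL and expansin-like genes (above the line) and 17 other wall genes (below it) for age in wild type (grey), age in the mutant (yellow) and genotype at 11 d (red). Most wall genes show negative grey and positive red points, as CSLF6 and CSLF8 do, whereas EXLA1 and EXLA2 show the opposite. The genes above the line were picked, and do not stand for their families. Among genes not drawn, CSLH1, CSLA5, CSLA7 and CSLA9 went as EXLA1 did, and EXLA4 and CSLC7 as CSLF8 did. Grey and red points share the wild-type 11 d arrays.

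Markers of cells that the segment could hold also moved at 11 d, when 23.9% of all genes were higher and 22.8% lower in the mutant. Of 10 genes of dividing cells 8 were higher in the mutant at 11 d, among them MCM3 (0.93), MCM5 (0.94) and MCM6 (0.83), and their mean log2 signal was 9.70 to 9.84 in wild type at 11 d, 10.37 to 10.49 in the mutant at 11 d, 10.57 to 10.64 in wild type at 7 d and 10.23 to 10.46 in the mutant at 7 d. Of 6 green-leaf genes 5 were higher, with PORA, PSAG and PORB at 2.25, 1.60 and 1.12, and a mean signal of 9.07 to 9.36 in wild type against 10.26 to 10.61 in the mutant at 11 d (7 d: 9.14 to 9.63 and 9.45 to 9.67). The 4 xylem and fibre genes, CESA4, CESA7, CESA9 and BC1, are also on the wall list above and were all higher, at 7.61 to 7.85 against 8.69 to 9.12 (7 d: 8.70 to 9.04 and 8.01 to 8.43). Of 6 root genes 4 were higher, among them SCR1 (1.29) and SHR1 (0.58), and WOX11, a gene of crown root formation, was lower (-2.41). Mean signals of the root genes were 6.55 to 6.67 in wild type and 6.66 to 6.84 in the mutant at 11 d (7 d: 6.54 to 6.81 and 6.49 to 6.64). Of 4 meristem genes 1 was higher and 1 lower (8.81 to 9.01 against 8.86 to 8.88; 7 d: 8.72 to 8.83 and 8.64 to 8.83), as of 3 phloem genes (9.49 to 9.56 against 9.32 to 9.43; 7 d: 8.91 to 8.95 and 9.08 to 9.11). The dimmest root markers at 11 d in wild type were Lsi2 (4.04) and CRL4 (4.26), below the median probe set. The differences of the marker genes at 11 d were not read without mutant 11 d replicate 3 either. These lists too were chosen with earlier results of these data known. The part of these cell types in the differences of the expansin and CSL genes was not tested.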

How the data were processed

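Expression was measured on 12 Affymetrix arrays. The authors deposited log2 signals, computed by RMA (robust multi-array averaging) under R version 3.1.0 according to the submitters' processing notes. Its background correction is not given in the sources used here. In all, the 57381 probe sets held no missing values, array medians were 4.944 to 5.005, and no further normalization was applied. The number of arrays limits precision. No detection calls entered the work, and how far dim probe sets lie above background is not known.

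After 187 control probe sets were left out, 57194 were fitted with limma 3.58.1 (R 4.3.3), with 1 mean per group, all 12 arrays, empirical Bayes moderation and 8 residual degrees of freedom, and two-sided p-values were adjusted by Benjamini-Hochberg within each contrast. The fit was tested on simulated data. Genes were named from the platform annotation, updated through a gene table of assembly ASM3414082v1, used for names and neighbours only; 22436 probe sets list 1 gene, 95 several and 34663 none. Replicate numbers follow accession order and pair nothing.

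Genes described singly are those called at 7 d, per family up to 3 called members each way with the largest difference at 11 d and up to 2 for each age contrast, and the member with the highest mean; EXPA16, EXPB2, EXPB6, EXPB18 and CSLF7 were added after their values were seen. Wall and marker genes are mostly named by the smallest p at 11 d. OSH1 was named as a marker of the tissue and Lsi2 and CRL4 as dim markers, and the called meristem and phloem genes are not named. The members, lists and tests were chosen with earlier results of these data known. Alternatives were another moderation, fits of fewer groups, a filter on dim probe sets, 2 normalizations, array weights, other probe sets per gene, a minimum change, a replicate block and leaving out each array.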

Additional observations from a re-analysis of the deposited data

Results flagged for a closer look

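In 18 named genes, 9 upward and 9 downward, the genotype difference itself changed from 7 d to 11 d, by limma's interaction test with an adjusted p under 0.05. These shares, 18.0% of the 50 genes each way, lay near the 18.6% and 19.6% of all genes. Among expansin-like genes the change was -2.49 for EXLA1, -1.71 for EXLA2, -0.41 for EXLA3 and 0.75 for EXLA4. Among glucan synthase genes it was 1.98 for CSLF6, 1.19 for CSLF8, 0.44 for CSLF2 and -0.37 for CSLH1. CSLA9 changed by -0.77, CSLA7 by -0.56, CSLC7 by 0.91 and CSLD2 by 0.67. The alpha-expansins EXPA5 (0.53), EXPA10 (0.42) and EXPA29 (0.60) changed upward and EXPA6 (-0.87) and EXPA7 (-0.62) downward, and the beta-expansin EXPB4 changed by -0.49. All of these include the wild-type arrays at 11 d, and without mutant 11 d replicate 3 the EXPB4 value was -0.45 (adjusted p = 0.0642), while the other 17 were called. With each array left out in turn, the EXPB4 call was lost in 7 of 12 fits, that of EXPA5 in 8, EXLA3 in 7 and CSLF2 in 6.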

How the results depend on the processing

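Counts of called genes for genotype at 7 d, genotype at 11 d, age in wild type, age in the mutant and the interaction were 1, 23, 25, 12 and 18. With a minimum change of 1 (log2) they were 0, 5, 7, 1 and 4, and the shares of all genes under that minimum were not counted. A fit of only the groups compared gave 0 at 7 d. With 1 array left out at a time, the counts ranged from 0 to 2 at 7 d, 17 to 24 at 11 d, 22 to 26 for age in wild type, 5 to 12 for age in the mutant and 14 to 18 for the interaction. Without mutant 7 d replicate 1, EXPA29 (-0.47) and EXPB7 (0.60) were called at 7 d. The other alternatives run kept each count within 1.5 times its value. The direction of CSLF6 at 11 d reversed, to -0.014, when the median of its probe sets was taken, 2 of which are dim. Of 78 called values of the 32 named genes, 56 passed in all 12 fits that leave out an array.

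The sample titles of both genotypes at 7 d share the numbers 8 and 9, whose arrays correlated in their deviations from the group means at 0.047 and 0.051. Such correlations over all probe sets cannot show whether same-numbered arrays were handled together, and the meaning of the numbers is not given. With the title number as a replicate block, the 7 d arrays gave 1 call, EXPA1 (-1.45, adjusted p = 0.0181), and EXPA29 had an adjusted p of 0.275. Members with dim probe sets may be below detection.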

Other observations

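Some members varied more between arrays of a group than between groups, and these were picked out after their values were seen. In the mutant at 7 d, replicate 3 was the highest array for EXPA3 (5.10, against 4.00 and 3.69), EXPA8 (7.16, against 5.29 and 5.49) and EXPB2 (9.25, against 7.10 and 7.54). The mean log2 signal of the 6 root markers lay between 6.49 and 6.64 in the 3 arrays of that group. Whether root cells had a part in the high values was not tested. EXPB11 gave 10.16, 9.01 and 8.96 in wild type at 11 d and 10.90, 9.99 and 9.41 in the mutant, so that replicate 1 was the highest in each, as it was for EXPA2 (10.35 and 11.13); the replicates carry no shared number. EXPB18 gave 2.83, 2.67 and 6.46 in wild type and 3.16, 7.52 and 4.32 in the mutant at 11 d.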
